A study of Mus musculus with 6 samples.

Results

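The clustered protocadherins were taken as the protein-coding genes on mouse chromosome 18 whose symbols begin with Pcdha, Pcdhb or Pcdhg, which gave 57 of 21851 protein-coding genes. They comprised 12 alternate Pcdha genes, 22 Pcdhb genes, 12 Pcdhga genes, 6 Pcdhgb genes and the 5 C-type genes Pcdhac1, Pcdhac2, Pcdhgc3, Pcdhgc4 and Pcdhgc5. All 57 lie on the forward strand, and the domain described here, with 100 kb added on each side, is chr18:36830184-37941873 in mm10. The domain held 124 of the 382006 regions obtained by merging the peaks of all libraries. Of these regions, 63 lay within 1 kb of a member's start site, 59 were distal to every protein-coding start site and 2 lay at the starts of other coding genes.

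Accessible chromatin had been profiled by ATAC-seq, in which the transposase Tn5 cuts and tags exposed DNA, in wild-type mouse face tissue at E11.5. The tissue was used fresh, and the labels give its cell type as mixed. There were 2 libraries labelled maxillary process (the upper jaw primordium), 2 labelled mandibular process (the lower jaw primordium) and 2 labelled nose. Whether same-label libraries stem from separate embryos is not stated, so the spread between them may be technical. In the file names of the 4 jaw libraries the abbreviations of both jaw processes stood the other way round than in the labels, which were followed here.

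Protocadherins are cell surface adhesion proteins of the cadherin superfamily, and the clustered ones are best known from neurons, where the set of isoforms that a cell makes marks it as distinct from its neighbours. In the Pcdha and Pcdhg clusters each large variable exon has its own promoter and is spliced to a shared set of constant exons, whereas Pcdhb genes consist of a single coding exon. In neurons, alternate promoters are chosen largely at random in each cell, C-type promoters follow a more uniform course, and the DNA-binding factor CTCF with cohesin links promoters to distant enhancers. Bulk tissue gives one value per library, so a promoter open in few cells and one weakly open in many cells cannot be told apart.

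Peaks at member promoters were patchy. A promoter was counted as called where any deposited peak touched the window of 1 kb on each side of the start site of the transcript with the longest coding sequence. The 2 maxillary libraries had 24 and 25 called member promoters, the 2 mandibular libraries 24 and 21, and the 2 nose libraries 22 and 22. The corresponding shares of the 57 members were 42.1, 43.9, 42.1, 36.8, 38.6 and 38.6%, where the same lists called 65.1, 66.3, 66.4, 66.0, 65.8 and 66.4% of all protein-coding promoters. The member shares were thus lower than the genome-wide shares in 6 of 6 libraries.

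Most of this patchiness lay in promoters called in some libraries and not in others. A peak was called in all 6 libraries at 11 members (19.3%), beside 62.4% of all promoters, and in none at 18 members (31.6%), beside 29.5%. The remaining 28 members (49.1%) were called in 1 to 5 libraries, a state found at 8.14% of all promoters, and 12 of them were called in a single library. On chromosome 18 as a whole, members included, 69.1% of 511 protein-coding promoters were called in all 6 libraries and 17.4% in none.

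**Figure D1:**
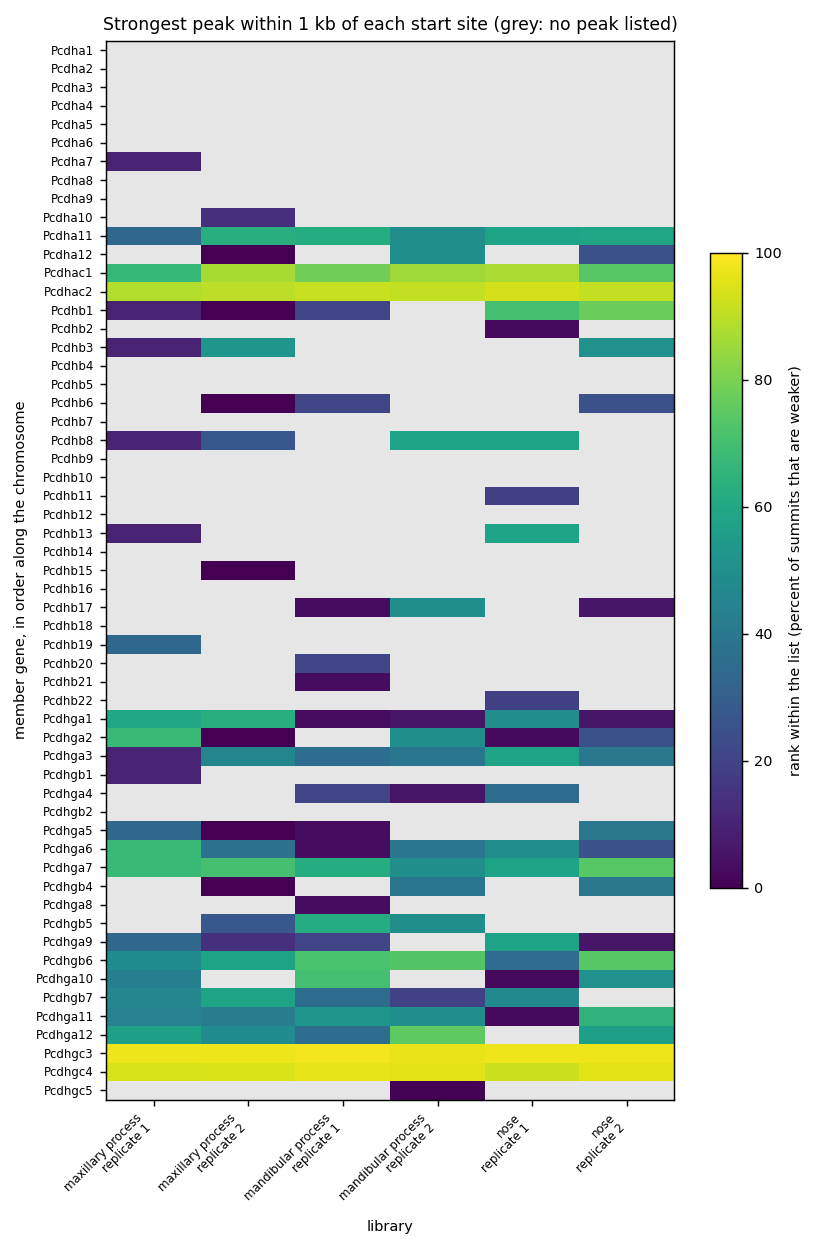
Each row is 1 of the 57 members in order along the chromosome and each column 1 of the 6 libraries; colour gives the rank of the strongest promoter peak within its own list, as the percent of summits that are weaker, and grey marks a promoter with no listed peak. Pcdhac2, Pcdhgc3 and Pcdhgc4 are the brightest rows in every library, and grey prevails among the alternate Pcdha and the Pcdhb rows.

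The groups of members differed in how often they were called. Over all members and libraries 138 of 342 possible calls were made (40.4%). The alternate Pcdha promoters had 11 of 72 (15.3%) and the Pcdhb promoters 27 of 132 (20.5%). The Pcdhga promoters had 57 of 72 (79.2%), the Pcdhgb promoters 18 of 36 (50.0%) and the C-type promoters 25 of 30 (83.3%). The Pcdhga range over libraries, 66.7 to 91.7%, lay above the Pcdhb range, 9.09 to 27.3%, and above the alternate Pcdha range, 8.33 to 25.0%. Members of a group are paralogs that share sequence and are not replicates, so these counts are given without a test.

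**Figure D2:**
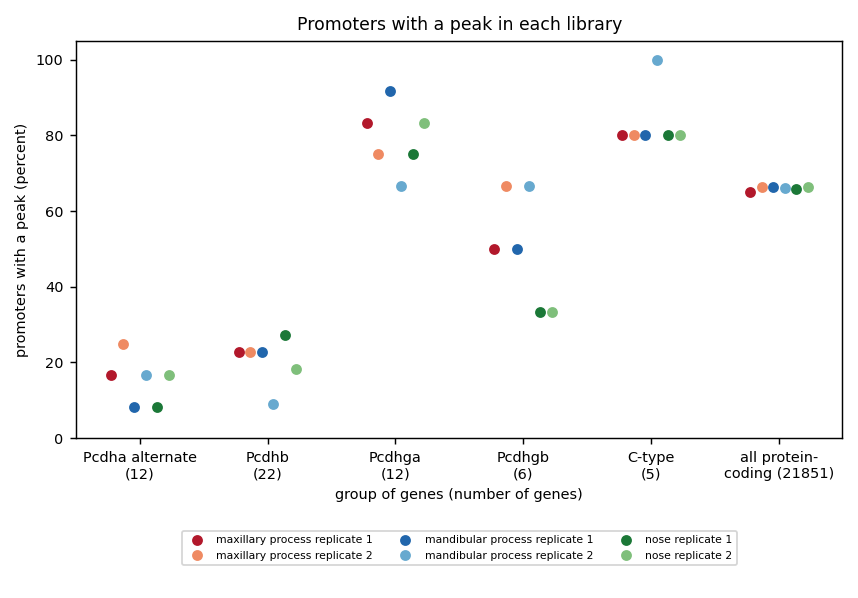
Points show, for each of the 6 libraries, the percent of promoters with a peak in each group of members and, at the right, among all 21851 protein-coding promoters. Every library called fewer Pcdha alternate and Pcdhb promoters, at most 27.3%, than promoters at large, at least 65.1%.

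By median rank over the libraries, the strongest promoter peaks of the 3 clusters were those of 4 of the 5 C-type genes. Strength was read as rank, the percent of summits in the same list with a smaller −log10 p, because the deposited fold and −log10 q are made within a library. Pcdhgc3, the first C-type gene of the gamma cluster (start site 37806410), ranked at 97.3 and 97.6% in the maxillary libraries, 98.3 and 96.5% in the mandibular libraries and 97.6 and 97.5% in the nose libraries. Its −log10 q lay between 30.8 and 44.1. Pcdhgc4, the next gene (37815079) and one known to be needed for the survival of some neurons, ranked at 94.0 and 94.5% in the maxillary, 96.3 and 95.8% in the mandibular and 92.3 and 96.0% in the nose libraries. Both promoters were near the top of all 6 lists, and the label ranges overlapped except that both mandibular ranks of Pcdhgc4 were above both maxillary ones. By −log10 q that exception did not hold, with 31.8 in maxillary replicate 2 and 31.0 and 28.5 in the mandibular libraries. The lists differ in length and lower limit, so ranks from different libraries are only roughly comparable.

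The alpha cluster's C-type genes were called throughout as well. Pcdhac2 (37143503) ranked at 88.3 and 89.8% in the maxillary libraries, 91.7 and 90.8% in the mandibular libraries and 93.7 and 90.8% in the nose libraries. Both mandibular and both nose ranks of Pcdhac2 were above both maxillary ones, and the mandibular and nose ranges overlapped. By −log10 q this order did not hold. The values were 14.0 and 22.8 in the maxillary, 20.4 and 18.6 in the mandibular and 22.1 and 18.6 in the nose libraries. The strongest Pcdhac2 summit lay 390 to 809 bp downstream of the start, inside the variable exon. Pcdhac1 (37090013) was more variable, at 66.7 and 87.0% in the maxillary, 78.1 and 85.9% in the mandibular and 87.3 and 73.9% in the nose libraries, and the ranges of the 3 labels overlapped. In maxillary replicate 1 it stood below Pcdhga2, Pcdhga6 and Pcdhga7, at 67.5% each, and in nose replicate 2 below Pcdhb1, at 77.2%. Pcdhgc5 (37819513), the last C-type gene, departed from the other four in being called in a single library, mandibular replicate 2, with a fold of 2.42, a −log10 q of 1.39 and a rank of 0.575%.

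Among the 12 alternate Pcdha promoters, Pcdha11 was called in all 6 libraries and 8 were called in none, namely Pcdha1, Pcdha2, Pcdha3, Pcdha4, Pcdha5, Pcdha6, Pcdha8 and Pcdha9. Pcdha11 (37010752) ranked at 33.6 and 63.0% in the maxillary libraries, 61.8 and 49.9% in the mandibular libraries and 58.2 and 58.8% in the nose libraries. Pcdha12 (37020149) was called in replicate 2 of each label, at ranks of 0.0, 49.9 and 24.7%. Pcdha10 (37005203, a gene that GENCODE lists under the symbol Pcdha11 as well) was called once, at 13.7%, and Pcdha7 (36973802) once, at 9.93%. All 4 called promoters lie in the second part of the alternate array, the one nearer to Pcdhac1.

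The Pcdhb group had no promoter called in all 6 libraries, 9 called in none and 13 called in 1 to 5, of which 7 were called once. The median rank of its 27 calls was 21%. Pcdhb1 (37264938), the first gene of the cluster, was called in 5 libraries, with ranks of 9.93 and 0.0% in the maxillary libraries, 21% in mandibular replicate 1 and 70.6 and 77.2% in the nose libraries. The nose libraries thus stood above the others at this promoter, which is a description of one gene picked out after its values were seen. Pcdhb8 (37355271) was called in 4 libraries at ranks of 9.93, 27.0, 57.9 and 58.2%. Pcdhb3 (37300799) was called in both maxillary libraries at 9.93 and 52.5% and in nose replicate 2 at 50.7%, and Pcdhb13 (37442500) in 2 libraries at 9.93 and 58.2%.

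The Pcdhga genes were called broadly but weakly. Pcdhga1, Pcdhga3, Pcdhga6, Pcdhga7 and Pcdhga11 had a peak in all 6 libraries, no Pcdhga promoter lacked one everywhere, and the median rank of the 57 calls was 40.1%. Pcdhga7 (37714764) had the highest median rank in the group, 64.6%, with 67.5 and 70.6% in the maxillary libraries, 61.8 and 49.9% in the mandibular libraries and 58.2 and 73.9% in the nose libraries. Pcdhga12 (37765580) was called in 5 libraries at 36.0 to 75.4%, and Pcdhga10 (37746993) in 4 at 2.47 to 70.1%. Ranks of one promoter therefore ranged widely between libraries. Pcdhga8 was called only in mandibular replicate 1.

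The Pcdhgb genes, which are interspersed with the Pcdhga genes, fell between the groups. Pcdhgb6 (37742094) was called in all 6 libraries, at 48.7 and 58.2%, 71.1 and 73.3%, and 34.8 and 73.9% for the maxillary, mandibular and nose libraries, and Pcdhgb2 was called in none. Pcdhgb5 (37731009) was called in 3 libraries at 27.0, 61.8 and 49.9%, and Pcdhgb7 (37751600) in 5 at 19.7 to 58.0%. Pcdhgb8, which the annotation holds as a polymorphic pseudogene and which was therefore no member, had a peak at its start in all 6 libraries.

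Peaks at alternate promoters were narrower and weaker than those at C-type promoters. By the median over calls, alternate Pcdha, Pcdhga and Pcdhgb peaks ranked near the middle of the lists, at 49.9, 40.1 and 47.1%, and Pcdhb peaks lower, at 21%. The median width was 106 bp for alternate Pcdha, 88 bp for Pcdhb, 127 bp for Pcdhga and 175 bp for Pcdhgb promoters, against 419 bp for C-type promoters. Listed likewise, the median −log10 q was 4.30, 2.61, 3.47, 3.89 and 21.6, and the median fold over background 4.77, 3.80, 4.37, 4.58 and 9.06. In 83 of the 138 member calls (60.1%) another member had the same −log10 q in the same library, with up to 7 members sharing one value. The best summit at a called member promoter had a median rank of 35.8 to 53.6% in the 6 libraries, where that at all called promoters had 94.5 to 96.0%.

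Stricter limits on the peaks left 24 of the 25 C-type calls, losing the single call of Pcdhgc5, and thinned the other groups. The 113 calls at members outside the C-type group fell to 68 at a limit of 3 on the −log10 q and to 26 at a limit of 5. With a −log10 q of at least 3, 6 members were called in all 6 libraries, namely the 4 C-type genes, Pcdhga7 and Pcdhgb6, and 30 in none, while 59.6% of all promoters were called in all 6 and 32.6% in none. With a −log10 q of at least 5, the 4 were Pcdhac1, Pcdhac2, Pcdhgc3 and Pcdhgc4, 38 members were called in none, and of all promoters 56.5% were called in all 6 and 35.4% in none. The lowest deposited −log10 q was near 1.3 in 4 lists, 1.62 in mandibular replicate 1 and 2.55 in maxillary replicate 2, so weak peaks entered the lists at different limits. With every list shortened to its best 219779 summits, the same 4 C-type genes had a peak in all 6 libraries, as did Pcdha11, Pcdhgb6, Pcdhga3 and Pcdhga7. These 8 members stood beside 25 called in none, where 61.1% of all promoters were called in all 6 and 31.4% in none.

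Summits lay at the start sites or a short way into the variable exon. Of the 138 strongest summits, 73 were within 100 bp of the start, 52 were farther downstream and 13 farther upstream, a division chosen after the positions were seen. The downstream summits fell between 195 and 476 bp in 24 Pcdhga calls, between 209 and 226 bp in 5 Pcdhgb calls and between 161 and 568 bp in 6 alternate Pcdha calls. Upstream summits were mostly those of Pcdhb promoters, with 8 of the 13.

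The CTCF core was searched in the 57 promoter windows on both strands, in a loose form (CC, any 3 bases, AG, any 2 bases, then GGC) and in a stricter form that restricts the free bases. A loose match stood in all 12 alternate Pcdha windows, in 8 of 12 Pcdhga, 2 of 22 Pcdhb, 0 of 6 Pcdhgb and 4 of 5 C-type windows, beside 37.4% of all protein-coding promoters. Of the matches, 33 were on the strand of the gene and 5 on the other, whereas all promoters had 5483 and 5372. The strict form was found in 6 windows, all of them alternate Pcdha (Pcdha1, Pcdha4, Pcdha6, Pcdha7, Pcdha8 and Pcdha12), and in 1.69% of all promoters. A match is a description of letters and not of binding.

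The matches recurred at set places in the paralogs. In 6 alternate Pcdha genes, Pcdha4, Pcdha5, Pcdha6, Pcdha8, Pcdha9 and Pcdha12, a pair of matches on the gene strand stood exactly 352 bp apart, at 185 and 537 bp downstream of the start in Pcdha12 and at 229 and 581 bp in Pcdha6. In Pcdhga genes the 9 matches on the gene strand lay 288 to 444 bp downstream. Of these 6 Pcdha genes only Pcdha12 had a called peak in any library. A short element, CGCT, stood on the gene strand from 250 bp upstream to 50 bp downstream of the start in 50 of 57 members (87.7%), beside 52.4% of all promoters, and in all 6 Pcdhgb windows.

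**Figure D3:**
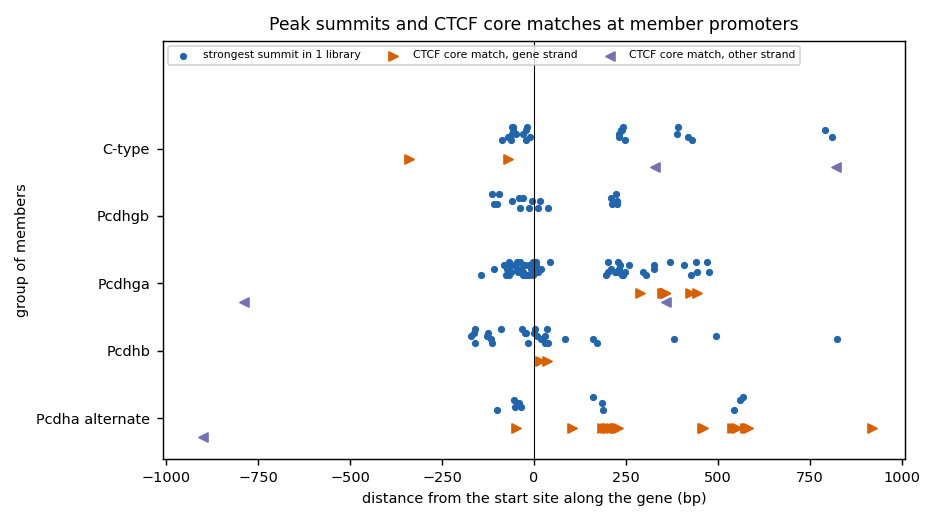
For each group of members, circles give the distance of the strongest summit from the start site in each library where a peak was called, and triangles the positions of loose CTCF core matches, pointing right on the gene strand and left on the other; circles are spread vertically only for legibility. Circles gather at the start site and again downstream, for Pcdhga between 195 and 476 bp. The Pcdhga matches on the gene strand lie at 288 to 444 bp, not always in the same genes. Pcdhga12 has its summits at 295 to 370 bp and no match. Pcdhga5, Pcdhga8 and Pcdhga10 have such matches, and their strongest summits lie within 100 bp of the start.

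Base composition and uniqueness of the windows were compared because both can bear on calls. The median ratio of observed to expected CpG was 0.641 for alternate Pcdha, 0.334 for Pcdhb, 0.495 for Pcdhga, 0.530 for Pcdhgb and 0.566 for C-type windows, beside 0.474 for all promoters, and ranged from 0.138 at Pcdhb9 to 0.835 at Pcdhgc3. The group with the highest median, alternate Pcdha, was the least often called. Among 5683 other promoters with a ratio between the members' quartiles (0.355 to 0.601), 87.6% were called in all 6 libraries, 7.07% in none and 5.35% in between. The medians of the rarely called alternate Pcdha and Pcdhb windows lay outside this range, and these other promoters were not matched by GC content. The median GC content was 41.7% for alternate Pcdha, 42.1% for Pcdhb, 45.5% for Pcdhga and 44.5% for Pcdhgb windows. It was 51.4% for C-type windows, beside 51.3% for all promoters. Groups ordered by median GC stood in the same order as by share of possible calls made. The part of base composition in the calls was not tested.

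Reads from paralogs may be hard to place, and reads of 50 bp were used. The share of 50 bp stretches of a window that occur once in the genome had a median of 98.8% over members and was lowest at Pcdha7 (82.1%). It was below 99% at 29 of 57 members and at 102 of the 454 other promoters of the same chromosome. Alternate Pcdha windows had 82.1 to 96.3% with a median of 91.3%, C-type windows 100% and Pcdhb windows 86.9 to 100% with a median of 100%. Unique stretches made up most of every window. Of the Pcdhb promoters called in no library, Pcdhb4, Pcdhb5, Pcdhb7, Pcdhb9, Pcdhb10 and Pcdhb12 had 86.9 to 97.8%. Pcdhb14, Pcdhb16 and Pcdhb18, also called in none, had 100%. Of the called Pcdhb promoters, Pcdhb6, Pcdhb8, Pcdhb11 and Pcdhb15 had 87.8 to 99.6% and the others 100%. How the authors treated reads that fit several places is not given in the sources used here, and its part in these calls was not tested.

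Away from the promoters, most regions called in every library lay at or between the constant exons or beyond the ends of the alpha and gamma clusters. Of the 59 distal regions 25 were called in all 6 libraries (42.4%), beside 14.8% of all distal regions of the genome and 18.3% of all regions. Of the 25, 10 lay at or between constant exons, 3 after the alpha cluster, 6 after the gamma cluster and 6 in the variable parts of the clusters. The last 6 included chr18:37761562-37761812, which covered the start of Pcdhgb8 (37761801). It counted as distal because Pcdhgb8 is annotated as a pseudogene, as did its neighbour chr18:37761861-37761985 among the 59. By segment, regions called in all 6 libraries numbered 8 of 22 in the alpha cluster (257 kb), 3 of 7 between alpha and beta (76.3 kb), 0 of 16 in the beta cluster (261 kb), 1 of 3 between beta and gamma (136 kb), 18 of 60 in the gamma cluster (181 kb) and 8 of 16 in the 100 kb after it. No region was listed in the 100 kb before the first member, nor in the first 44.1 kb after its start. All 16 regions of the beta cluster were promoter regions, and 10 of them were called in 1 library, as were 40 of the 124 regions of the domain (32.3%) and 44.4% of all regions.

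**Figure D4:**
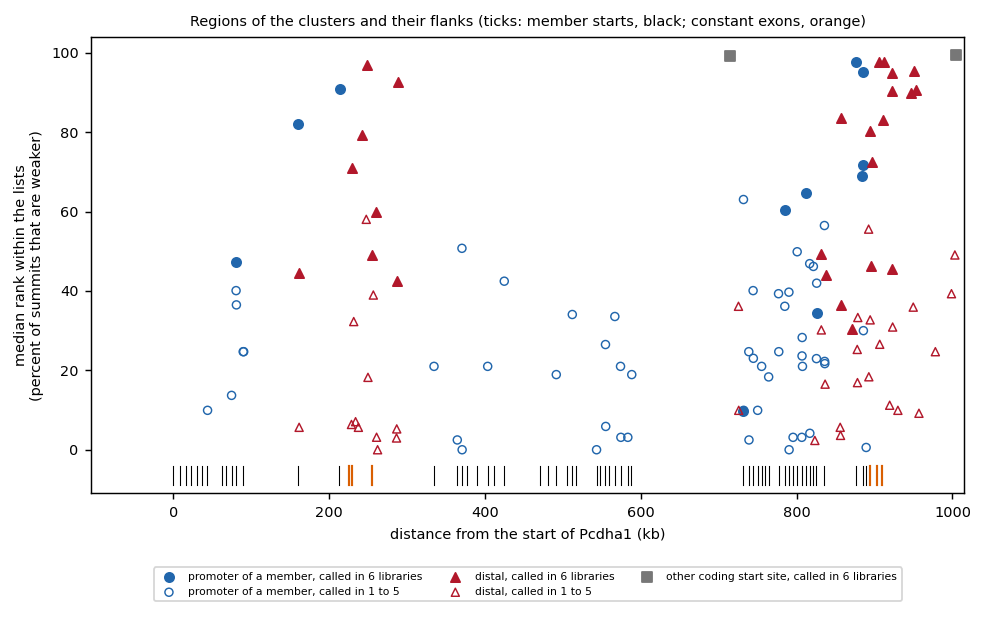
Each symbol is 1 of the 124 regions, placed by its distance in kb from the start of Pcdha1 and by the median rank of its strongest peak over the libraries that called it, with filled symbols for regions called in 6 libraries and open ones for 1 to 5; ticks mark the starts of members and the constant exons. Of the 25 distal regions called in all 6 libraries, 10 stand at or between the orange ticks of the constant exons, 3 after the alpha cluster, 6 after the gamma cluster and 6 in the variable parts. These last 6 include the region at the start of the pseudogene Pcdhgb8. The beta cluster holds open circles only.

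Of the 8 distal regions with the highest median ranks, 3 lay at or between constant exons, 1 after the alpha cluster and 4 in a neighbouring gene. In the alpha cluster, chr18:37178219-37179057, in the intron between the last pair of constant exons (37159265-37159353 and 37184946-37187657), ranked at 96.1 and 96.7% in the maxillary libraries, 98.0 and 96.6% in the mandibular libraries and 96.9 and 97.5% in the nose libraries. A second region, chr18:37217878-37218515, lay 30.5 kb after the alpha cluster and ranked at 94.3, 93.6, 78.1, 90.0, 93.3 and 91.9% in the same order. Enhancers of the alpha cluster are known from its constant part and from the interval downstream of it. Neither region was matched to a published enhancer here.

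In the gamma cluster, chr18:37835491-37836656 lay in the intron between the last pair of constant exons (37833265-37833353 and 37839903-37841873) and ranked between 96.3 and 98.4%. The region chr18:37841864-37843174 overlapped the end of the final constant exon and ranked between 95.8 and 98.7%. Both had a median rank of 97.6%, beside 97.5% for the Pcdhgc3 promoter. Both the alpha and the gamma cluster thus had a strong region in the intron before the last constant exon.

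The other 4 of the 8 strongest distal regions lay in Diaph1, the neighbouring gene, which encodes a formin that drives actin filament growth. They were chr18:37852026-37852474 and chr18:37852543-37853011, at 10.4 and 10.9 kb after the gamma cluster, and chr18:37880101-37880509 and chr18:37883482-37883806, at 38.4 and 41.8 kb. Their median ranks were 90.3, 94.8, 95.4 and 90.7%. Within the 8 strongest, no library ranked a region below 78.1%.

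Near the strongest summits, loose CTCF core matches faced opposite ways at promoters and at distal regions. Within 150 bp of the summit, 12 promoter regions of members each held a match on the forward strand, the strand of the genes, and none on the reverse. At Pcdhga3 and at Pcdhga9, neighbouring regions counted the same single match, so the distinct forward matches were fewer than 12. The 7 distal regions with a match held 6 on the reverse strand and 1 on the forward. Of the distal regions with reverse matches 5 were called in all 6 libraries. They included the Diaph1 region 41.8 kb after the gamma cluster, which held a strict match, the one at 10.4 kb and the end of the gamma constant exons (chr18:37841367-37841813). A loose match was found in 7.11% of all regions and 14.3% of those called in all 6. The orientations are counts of letters in few regions and were not tested.

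Pairs of libraries within a label and between labels overlapped in how alike they were in the domain. The called regions numbered 67 and 80 in the maxillary, 73 and 68 in the mandibular and 68 and 71 in the nose libraries. The Jaccard index, the regions shared by a pair of libraries over those called in either, was 0.619 ± 0.0371 (SD, n = 3 pairs) within a label and 0.598 ± 0.0330 (SD, n = 12 pairs) between labels. The highest index, 0.663, was that of maxillary replicate 1 and nose replicate 2. The difference of 0.0204 gave p = 0.267 in an exact one-sided permutation test over the 15 divisions of the 6 libraries into pairs, where 0.0667 is the smallest p the design allows. Counts of called member promoters, 24.5 ± 0.707 for maxillary, 22.5 ± 2.12 for mandibular and 22 ± 0 for nose (SD, n = 2 each), gave p = 0.533 by the same divisions (exact permutation test). Both maxillary counts were above both nose counts. The spread between labels depended on the limit of the lists. Its sum of squares, 7.0 here, was 0.333 at a −log10 q of at least 3, 9.33 at 5 and 26.3 with lists of equal length. With a smallest p of 0.0667 neither test could have passed 0.05, so neither bears on whether the labels differ.

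Few regions followed a label, as was so among all regions, and these small counts were not tested against the genome-wide shares. The pattern of a peak in both libraries that share a label and a peak in no other library was found at 0 of 57 member promoters. Of all promoters, 0.183% had it for the maxillary label, 0.215% for the mandibular label and 0.243% for the nose label. Of the 124 regions, 1 had this pattern for the maxillary label (1.91% of all regions did), 1 for the mandibular label (2.82%) and 2 for the nose label (3.18%). The maxillary region, chr18:37161724-37162056, lay in the intron before the last alpha constant exon and ranked at 28.2 and 36.4%. The mandibular region, chr18:37484915-37485012, lay at the start of Pcdhb17 with ranks of 3.13 and 49.9%, and a separate peak 495 bp downstream of that start was called in nose replicate 2. The nose regions, chr18:37786519-37786666 in a gamma intron and chr18:37887134-37887268 in Diaph1, ranked at 2.47 and 4.77% and at 15.2 and 3.15%, near the bottom of their lists.

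Pairs of labels gave small counts as well, likewise not tested against the shares of all regions. Between maxillary and mandibular process, 5 regions were called in both maxillary libraries and neither mandibular one (3.52% of all regions were), and 3 the other way (5.4%). Between maxillary process and nose the counts were 1 (3.72%) and 2 (5.72%), and between mandibular process and nose 3 (5.11%) and 4 (5.21%). Among whole promoters, Pcdhb3 was called in both maxillary and neither mandibular library, Pcdhb17 and Pcdhga4 the other way, and Pcdhgb5 in both mandibular and neither nose library. Every contrast thus turned on 1 to 5 of the 124 regions in a direction.

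Promoters of genes related to the members were counted beside the 62.4% of all promoters that were called in all 6 libraries and the 29.5% called in none. Of 12 nonclustered protocadherins, which lie singly in the genome and carry their own promoters, 9 were called in all 6 libraries, Pcdh1 in 3, Pcdh12 in 4 and Pcdh9 in none. All 13 chromatin regulators of the clusters on the list, among them Ctcf, the cohesin genes Rad21 and Smc3, the repressor Smchd1 and the methyltransferase Dnmt3b, were called in all 6. Of 10 partners and effectors, 8 were called in all 6, including the kinases Fyn and Ptk2, while Nlgn1 was called in none. Of the 6 other coding genes in the domain, Taf7 and Diaph1 were called in all 6, and Slc25a2 and 3 predicted genes (Gm42416, Gm37013 and Gm37388) in none. In the annotation these predicted genes span much of the protocadherin clusters, so they are not separate neighbours.

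Markers of cell types were counted beside the same shares of all promoters, 62.4% in all 6 and 29.5% in none, since clustered protocadherins are best known from neurons. Of 12 neuronal markers 9 were called in all 6 libraries and none was missing throughout, with 10, 12, 11, 12, 12 and 12 called in the 6 libraries in the order above. All 8 markers of facial mesenchyme and 6 of 7 of epithelium were called in all 6, as were 3 of 6 of endothelium, 2 of 3 of muscle, 1 of 4 of Schwann cell precursors and 0 of 4 of blood. The lowest neuronal count, in maxillary replicate 1, stood beside 24 called member promoters, and the count of 12 beside 21 to 25. That library had the shortest list, 219779 summits. Nearly all of the 12 markers were called in each library, so these counts do not measure the share of neurons. The part of any cell type in the member calls was not tested.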

How the data were processed

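Peak lists of 6 ATAC-seq libraries were analysed. Bowtie2, SAMtools and the build mm10 are named in the submitters' processing notes, and the peak caller is not given in the sources used here. The authors deposited 1 list per library giving for each summit its offset, score, fold over background (a ratio), −log10 p and −log10 q, in 219779 to 299731 summits. Depth in reads is unknown, so no limit of detection can be given. The deposited score was not used for comparisons, and the other values ranked or filtered peaks within a list. Medians of fold and −log10 q by group were taken over calls pooled from the 6 libraries, as a description.

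Peaks were merged at an overlap of at least 1 bp, and start sites came from the GENCODE M21 basic annotation. Named promoters were all C-type genes, the 3 best by median rank in each other group, those called in all 6 or, up to 8, in none, those of one label, and the 8 strongest distal regions. Others were chosen after their values were seen. The members and lists were chosen with earlier results of these data known. Sequence from the clusters is not reported here. Alternatives were stricter q limits, lists of equal length, other windows and start sites, a cover rule, no flanks, a replicate block and leaving out libraries. Python 3.11.15, numpy 2.4.6, pandas 2.3.3 and matplotlib 3.10.9 were used, and the scripts were tested on simulated data.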

Additional observations from a re-analysis of the deposited data

How the results depend on the processing

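Counts of weak peaks depended on the limit of the lists. Raising the least −log10 q to 3 and then to 5 took the members called in every library from 11 to 6 and 4, and those called in none from 18 to 30 and 38. Of all promoters, 62.4, 59.6 and 56.5% were then called in every library and 29.5, 32.6 and 35.4% in none. The mean count per library was 23.0, and 8.33 at the stricter limit, where 12 distal regions in place of 25 were called in all libraries. The Jaccard difference between same and different labels turned to -0.013 at a −log10 q of at least 5 and to -0.0076 with lists of equal length (p = 0.667 and 0.6, exact permutation test). The cause was not tested.

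Regions that told the maxillary from the mandibular process numbered 8 in both directions together, and 5 at the limit of 3, 1 at that of 5 and 5 using lists of equal length. Those between maxillary process and nose numbered 3, and 5 at a −log10 q of at least 3. Those between mandibular process and nose numbered 7, and 3 both at a −log10 q of at least 5 and with lists of equal length. Regions of a single label numbered 1, 1 and 2 for maxillary process, mandibular process and nose. A −log10 q of at least 3 gave 0 for mandibular process and 1 for nose, that of at least 5 gave 0, 0 and 1, lists of equal length gave 2, 0 and 0, and leaving off the flanks gave 1 for nose.

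Leaving out 1 library at a time gave 11 to 13 members in every library, 18 to 21 in none, a mean of 22.6 to 23.4 and 25 to 28 distal regions. It gave 8 to 24 regions for maxillary against mandibular process, 4 to 23 for maxillary process against nose and 7 to 21 for mandibular process against nose, and 1 to 10, 1 to 9 and 2 to 9 for the single labels, since fewer libraries had to meet the condition. The Jaccard difference ranged from 0.00745 to 0.0353 and the sum of squares of member counts between labels, 7.0, from 2.7 to 10.3, the highest without mandibular replicate 1. That sum was 0.333 and 9.33 at −log10 q limits of 3 and 5, and 26.3 with lists of equal length. With the replicate number as a block, only the 6 divisions that keep numbers apart were used and the Jaccard difference of 0.0204 had p = 0.5 (exact permutation test). The labels do not say that replicate numbers mark a shared litter or day. Windows of 500 bp and 2 kb, every coding start site, summits in place of peaks and the cover rule turned no direction and moved no count by over 1.5 times.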
